A study of Rattus norvegicus with 49 samples.

Results

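The results below concern 8 glutathione transferases of the rat: Gsta3 and Gsta4 of the alpha class, Gstm1 and Gstm2 of the mu class, Gstp1 of the pi class, Gstk1 of the kappa class, Gsto1 of the omega class and the microsomal enzyme Mgst1. They were chosen by name, with earlier results of these data known. Counts of the 8 set against all probe sets below are therefore not independent of that choice. A probe set was taken where the platform annotation gave exactly 1 of these symbols, which selected 8 of 31042 tested probe sets, 1 for each of 8 among 14217 named genes, on Affymetrix Rat Genome 230 2.0 arrays. The probe sets are 1371089_at (Gsta3), 1372297_at (Gsta4), 1386985_at (Gstm1), 1370952_at (Gstm2), 1388122_at (Gstp1), 1398378_at (Gstk1), 1389832_at (Gsto1) and 1367612_at (Mgst1). The study asked how liver and kidney gene expression changed with the dose of propylene glycol phenyl ether (PPH), a glycol ether solvent. Male Harlan Sprague Dawley rats, 6 to 8 weeks old when assigned, received PPH in corn oil by gavage at 5 mL/kg for 5 days and were killed on the following day. All groups, controls included, received the same vehicle volume, and the groups were 0, 1, 10, 100, 500 and 1000 mg/kg. No tissue was taken at 2000 mg/kg. Each of the 25 liver and 24 kidney arrays held RNA of 1 tissue sample. Liver had 5 control arrays and 4 at every other dose. Kidney had 5 control arrays, 4 at 1, 10, 100 and 1000 mg/kg, and 3 at 500 mg/kg. The protocol text in the labels mentions another compound (MCHM), whereas the series title and all sample names give PPH, which was taken as the agent.

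Glutathione transferases join the thiol of glutathione to electrophilic compounds, which makes the products more water-soluble and ready for export. Alpha, mu, pi and omega class enzymes are mainly cytosolic, the kappa enzyme lies in mitochondria and peroxisomes, and Mgst1 is an integral membrane protein of the endoplasmic reticulum and outer mitochondrial membrane. Liver is rich in alpha and mu enzymes, and the rat pi enzyme is known as a marker of preneoplastic liver foci. Several of these genes are known targets of the transcription factor NRF2, which binds antioxidant response elements, and of the xenobiotic receptors CAR and PXR.

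Values are RMA levels on the log2 scale, so a difference of 1 unit multiplies the linear level by 2. A level depends on the probe set as well as on the RNA, so no transferase's level was set against that of another transferase. The responses of liver and kidney were compared only by how far each moved from its own controls. Control levels of both organs are given side by side for organ markers and for Gstm1, as description. Liver arrays had medians of 5.21 to 5.31 and kidney arrays of 5.33 to 5.37, and the lowest correlation between arrays of the same organ was 0.985. The labelled organs carried their defining markers. Alb averaged 14.70 in control liver and 4.40 in control kidney, and the proximal tubule transporter Slc34a1 averaged 5.27 and 13.66. Precision is limited by how few arrays each group had. The labels call the samples biological replicates. All dose groups of an organ were compared with the same control arrays, so the comparisons across doses are not independent.

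The promoters of the 5 genes that passed the test in either organ are shown here because the NRF2 site is the best known control element of this family. Each is the 250 bases before the annotated transcription start, from RefSeq on the GRCr8 assembly, written 5′ to 3′ on the strand of the gene. For Gsta3, which has a second annotated start, only the window of the first is shown. Capitals mark bases that match any of 4 motifs searched on both strands: the antioxidant response element core TGACNNNGC, the AP-1 site TGANTCA, the aryl hydrocarbon receptor core GCGTG and the nuclear receptor element AGGTCA. The first and the second motif can overlap.
Gsta3, chr9:31154739-31154988, plus strand: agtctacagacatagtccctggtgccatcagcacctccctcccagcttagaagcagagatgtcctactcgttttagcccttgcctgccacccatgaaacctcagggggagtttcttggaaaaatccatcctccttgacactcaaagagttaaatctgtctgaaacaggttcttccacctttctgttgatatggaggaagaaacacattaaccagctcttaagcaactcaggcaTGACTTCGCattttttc
Gstm1, chr2:198343384-198343633, minus strand: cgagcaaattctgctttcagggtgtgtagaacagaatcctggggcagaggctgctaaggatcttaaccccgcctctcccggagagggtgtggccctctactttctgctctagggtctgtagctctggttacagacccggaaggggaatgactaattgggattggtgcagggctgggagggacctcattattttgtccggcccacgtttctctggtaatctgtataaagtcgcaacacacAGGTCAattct
Gstm2, chr2:198316918-198317167, minus strand: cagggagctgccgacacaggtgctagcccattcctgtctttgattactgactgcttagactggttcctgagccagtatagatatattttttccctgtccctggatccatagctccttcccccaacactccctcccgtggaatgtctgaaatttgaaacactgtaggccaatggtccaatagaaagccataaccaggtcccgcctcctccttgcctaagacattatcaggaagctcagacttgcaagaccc
Gstp1, chr1:210769706-210769955, minus strand: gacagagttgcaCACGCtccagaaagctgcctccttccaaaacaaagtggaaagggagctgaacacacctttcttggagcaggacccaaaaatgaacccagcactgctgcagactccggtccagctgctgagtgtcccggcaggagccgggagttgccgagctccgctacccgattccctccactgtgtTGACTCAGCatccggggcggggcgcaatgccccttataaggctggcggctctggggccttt
Mgst1, chr4:172760680-172760929, plus strand: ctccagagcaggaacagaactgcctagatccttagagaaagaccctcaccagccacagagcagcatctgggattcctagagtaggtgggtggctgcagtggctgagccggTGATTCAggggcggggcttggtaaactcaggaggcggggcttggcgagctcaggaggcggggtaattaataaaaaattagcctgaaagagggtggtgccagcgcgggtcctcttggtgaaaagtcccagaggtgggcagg

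Gsta3 matched the antioxidant response element core as TGACTTCGC, from 17 to 9 bases before the first of its 2 annotated starts. The window before its second start held no such match, and which start was in use was not measured. Gstp1 matched it as TGACTCAGC, from 61 to 53 bases before its start, and the AP-1 match of Gstp1 lies inside the same stretch. This core was found in 2 of 9 windows of the 8 genes and in 10.1% of 33469 windows of all genes. Mgst1 held an AP-1 match from 140 to 134 bases before its start, a motif present in 6.34% of windows, and Gstm1 held a nuclear receptor element from 11 to 6 bases before its start, a motif present in 14.1%. No window of Gstm2, Gstk1 or Gsto1 held any of the 4 motifs. GCGTG was present before the second annotated start of Gsta3 and in the windows of Gsta4 and Gstp1, and in 25.9% of all windows. These matches describe letters and no binding was measured. In the RefSeq gene order Gstm2 and Gstm1 are neighbours on chromosome 2, flanked by Gstm3 and Gstm4. Gsta3 lies next to Gsta1, Gsta4 next to Gsta5, Gstp1 next to Gstp3 and Gsto1 next to Gsto2. Transcripts of such paralogs resemble each other, and how much of a probe set's signal came from a paralog cannot be told from summarised values.

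In liver at 1000 mg/kg, Gsta3 and Gstp1 rose and the other 6 transferases did not pass the test. Gsta3 was 6.27-fold higher and Gstp1 1.41-fold higher than in controls. The 2 of 8 compare with 0.226% of all probe sets called higher in that comparison (70 of 31042), and none of the 8 was called lower.

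Gsta3 encodes an alpha class enzyme that conjugates electrophiles. Its liver level was 5.50, 7.35, 6.37, 7.12 and 7.53 in controls and 9.23, 9.54, 9.68 and 9.24 at 1000 mg/kg. The groups did not overlap, and control replicate 1 was the lowest of all liver arrays. The mean was 9.42 ± 0.22 (SD, n = 4) at 1000 mg/kg against 6.77 ± 0.84 (SD, n = 5) in controls, a log2 change of 2.65 (SE 0.315, limma adjusted p = 0.000111). The change was 2.33 without control replicate 1 (limma adjusted p = 7.66e-05), and Gsta3 passed under all 18 alternatives run for liver at 1000 mg/kg. In whole tissue, fewer cells of a type and less RNA per cell cannot be told apart. Hepatocyte markers, 7 of 9 measured, lay between -0.25 and -0.02 log2 units from the control mean in the 1000 mg/kg arrays and between -0.12 and 0.14 in controls, with none called. Their summed linear levels, 87040 to 91270, lay below every control, 94410 to 98650. The proximal tubule list, 9 of 9 measured, also summed lower, to 1489 to 1801 against 1839 to 2119, with 1 gene called lower. Slc22a8 and Miox averaged 10.08 and 9.09 in control liver and made up most of that sum. The other genes of the list averaged between 3.45 and 7.09. Macrophage markers, 8 of 9 measured, lay between -0.39 and -0.08 against -0.13 to 0.22, and 0 of 8 were above the controls on average. The part of these lists in the change of Gsta3 was not tested.

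Gstp1, the pi class enzyme, stood at 8.93, 8.88, 9.06, 8.87 and 9.03 in control liver and at 9.23, 9.45, 9.76 and 9.33 at 1000 mg/kg. All 4 treated arrays lay above all 5 controls, and replicate 3 was the highest. The mean was 9.44 ± 0.23 (SD, n = 4) against 8.95 ± 0.09 (SD, n = 5), a log2 change of 0.49 (SE 0.09, limma adjusted p = 0.0113). The call was lost without 1000 mg/kg replicate 3, with a change of 0.39 and a limma adjusted p of 0.0723, and in a fit of both groups alone (limma adjusted p = 0.182). Rat bile duct cells also express this enzyme. Cholangiocyte markers, 4 of 6 measured, lay between -0.18 and 0.36 log2 units from the control mean at 1000 mg/kg and between -0.18 and 0.30 in controls, with summed linear levels of 397.8 to 684.1 against 434 to 522.2. None of the 4 was called, and their part in the change of Gstp1 was not tested.

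The other 6 transferases had positive liver changes at 1000 mg/kg that did not pass. Gsto1, which also reduces dehydroascorbate and methylated arsenicals, stood at 10.82, 10.91, 10.76, 10.82 and 10.96 in controls and at 11.03, 11.22, 11.18 and 11.02 at 1000 mg/kg. These ranges did not overlap, but the change was 0.26 (SE 0.066) with a limma adjusted p of 0.109. It passed with 1 probe set per gene (0.0356), with brighter probe sets only (0.024) and with a variance trend (0.0139), all limma adjusted p-values. Gstm2 differed by 0.46 (SE 0.159, limma adjusted p = 0.297), with treated arrays from 11.11 to 11.49 overlapping controls from 10.54 to 11.21. Gstm1, a mu class enzyme abundant in liver, stood at 12.77 ± 0.10 (SD, n = 5) in controls and 12.96 ± 0.10 (SD, n = 4) at 1000 mg/kg, a change of 0.19 (limma adjusted p = 0.514) with a 95% interval from 0.004 to 0.377.

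Gstk1, the mitochondrial and peroxisomal enzyme, and Gsta4 had changes below that of Gstm1. Gstk1 ranged from 11.06 to 11.16 in control liver and from 11.25 to 11.30 at 1000 mg/kg, a change of 0.17 (limma adjusted p = 0.378) without overlap. Gsta4, which favours 4-hydroxynonenal and related products of lipid peroxidation, differed by 0.15 (limma adjusted p = 0.556), with treated arrays from 10.99 to 11.12 and controls from 10.72 to 10.99. Mgst1 had the narrowest interval. Its level was 13.82 ± 0.03 (SD, n = 5) in controls and 13.86 ± 0.03 (SD, n = 4) at 1000 mg/kg, and the 95% interval of the change ran from -0.069 to 0.156. Across the 8 transferases the median liver change was 0.22, against 6.51e-05 over all probe sets, and 8 of 8 were positive, against 50% of all. In 5 of 8 every treated array lay above every control array, against 2.33% of all probe sets.

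**Figure D1:**
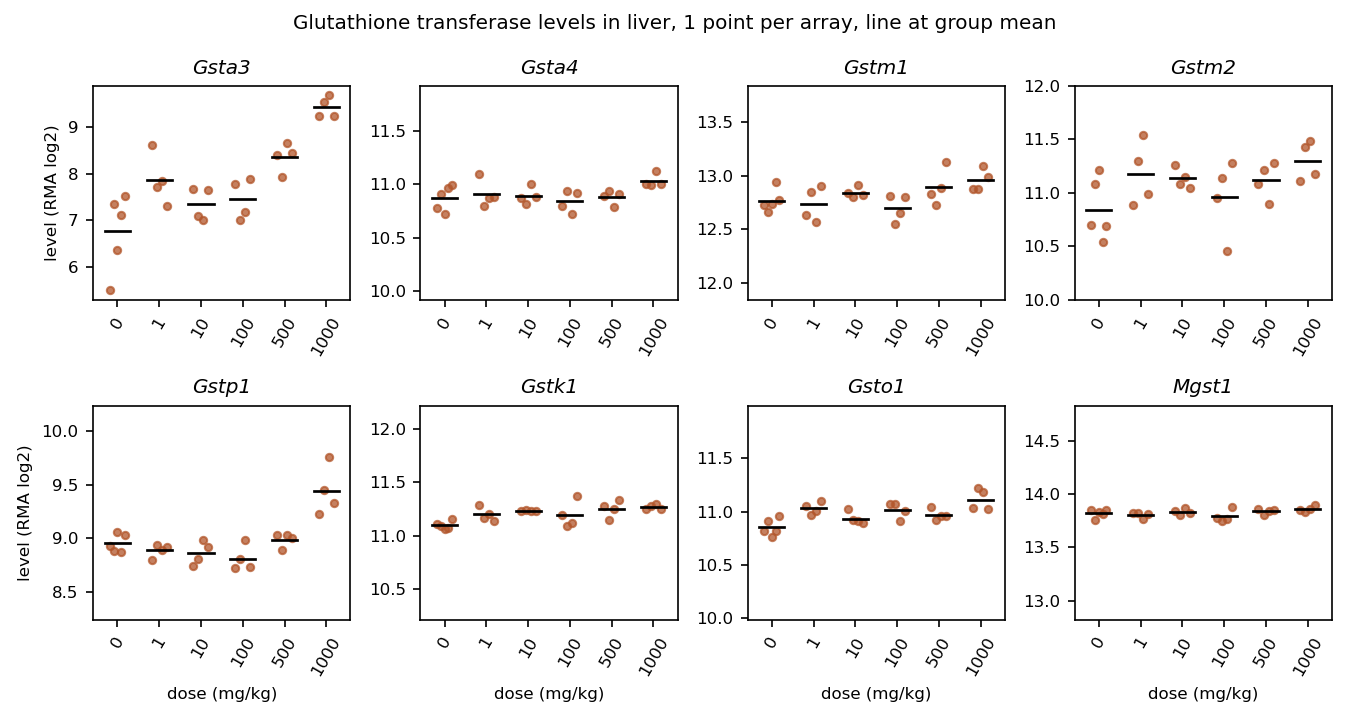
RMA log2 level (y axis) of each transferase in liver against dose in mg/kg (x axis, doses evenly spaced), with 1 point per array and a line at the group mean. Y axes differ between panels. Gsta3 runs from 5.50 in a control to 9.68 at 1000 mg/kg, and Gstp1 at 1000 mg/kg lies above every array of its other groups.

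At 500 mg/kg none of the 8 passed in liver (limma), where 0.0129% of probe sets were called, all higher. Gsta3 stood at 8.40, 7.92, 8.66 and 8.45, above every control array and below every 1000 mg/kg array. Such a separation from controls was found for 1 of the 8 and for 2.34% of all probe sets. Its change was 1.58, or 3.00-fold, with an unadjusted p of 4.05e-05 and a limma adjusted p of 0.15, and it ranked 8 among 31042 probe sets by p. Gstk1 was the other member with an unadjusted p under 0.05 (0.0275, change 0.15), so 2 of 8 reached that level, against 4.77% of all probe sets in the higher direction. Gstp1 lay between 8.89 and 9.03, inside its control range of 8.87 to 9.06, with a change of 0.04.

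None of the 8 passed at 1, 10 or 100 mg/kg in liver, where 0%, 0.00322% and 0% of probe sets were called (limma). At 1 mg/kg Gsta3 was 8.62, 7.72, 7.85 and 7.30, and 3 of these arrays exceeded every control. The change was 1.10 (unadjusted p = 0.00192, limma adjusted p = 0.457), larger than 0.58 at 10 mg/kg and 0.69 at 100 mg/kg. All 3 changes use a control mean lowered by replicate 1 at 5.50, where the other controls lay between 6.37 and 7.53. Their sizes without that array are not given here. Unadjusted p-values under 0.05 were found for 3 of the 8 at 1 mg/kg (Gsta3, Gstm2 and Gsto1), 0 at 10 mg/kg and 2 at 100 mg/kg (Gsta3 and Gsto1), all with higher means. The shares of all probe sets that reached this level in the higher direction were 4.24%, 4.03% and 4.03%. Gstp1 means at these doses were 0.06 to 0.14 log2 units below the control mean. Separation from controls was also seen for 1 of the 8 at 1 mg/kg and for 1 of the 8 at 10 mg/kg. The share of all probe sets separated at these doses is not given here, so these 2 cases cannot be set against it. Gsto1 at 1 mg/kg lay between 10.97 and 11.10, barely above its controls at 10.76 to 10.96. Gstk1 at 10 mg/kg lay between 11.23 and 11.24, above its controls at 11.06 to 11.16.

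Over dose rank, Gsta3 rose by 0.42 log2 units per step (SE 0.068, limma adjusted p = 0.00646), the 1 of 8 that passed, against 0.168% of probe sets called rising. Gstp1 had a slope of 0.07 (limma adjusted p = 0.236). Between 500 and 1000 mg/kg, where no probe set passed and 1634 of 31042 had an unadjusted p under 0.05, every array at the higher dose lay above every array at the lower one for 3 of the 8 (Gsta3, Gsta4 and Gstp1), against 1.60% of all probe sets. Gsta3 differed by 1.07 (limma adjusted p = 0.731) and Gstp1 by 0.46 (unadjusted p = 6.89e-05, limma adjusted p = 0.245). In the order of the dose means of Gsta3, the groups at 0, 10, 100, 1 and 500 mg/kg overlapped with their neighbours, and 1000 mg/kg stood apart. All 8 transferases had their highest liver mean at 1000 mg/kg, and the share of all probe sets with this pattern was not counted. For Gstk1 and Mgst1 the margin over 500 mg/kg was 0.02, below the larger SD of 0.08 and 0.03.

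In kidney at 1000 mg/kg, both mu enzymes, Gsta3 and Mgst1 rose. Gstm1 was 2.31-fold, Gsta3 1.88-fold, Gstm2 1.62-fold and Mgst1 1.24-fold higher than in controls. These 4 of 8 compare with 0.197% of probe sets called higher (61 of 31042), and none of the 8 was called lower. Gstp1, Gstk1, Gsta4 and Gsto1 did not pass.

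Gsta3 stood at 6.65, 6.45, 5.96, 6.20 and 6.65 in control kidney and at 7.17, 7.28, 7.31 and 7.41 at 1000 mg/kg, with no overlap. The mean was 7.29 ± 0.10 (SD, n = 4) against 6.38 ± 0.30 (SD, n = 5), a log2 change of 0.91 (SE 0.178, limma adjusted p = 0.0127). Gsta4 ranged from 11.77 to 11.91 at 1000 mg/kg. Control replicate 5 stood at 12.04, above all treated arrays, and the other controls lay between 11.56 and 11.69. Its change was 0.13 (limma adjusted p = 0.611).

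Gstm1 stood at 7.78, 7.78, 8.18, 7.53 and 7.56 in control kidney and at 8.65, 9.06, 9.16 and 9.03 at 1000 mg/kg. Every treated array exceeded every control. The mean was 8.97 ± 0.22 (SD, n = 4) against 7.77 ± 0.26 (SD, n = 5), a log2 change of 1.21 (SE 0.176, limma adjusted p = 0.00056), and Gstm1 passed under all 18 alternatives. Gstm2, its chromosomal neighbour, stood at 6.47, 6.48, 6.71, 6.26 and 6.42 in controls and at 6.92, 7.13, 7.48 and 7.13 at 1000 mg/kg. These groups did not overlap either, and the change was 0.70 (SE 0.131, limma adjusted p = 0.00824).

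Mgst1 stood at 11.74, 11.72, 11.54, 11.67 and 11.80 in control kidney and at 12.02, 11.86, 12.07 and 12.06 at 1000 mg/kg. All treated arrays were higher. The change was 0.31 (SE 0.071, limma adjusted p = 0.0445). This call was lost when control replicate 1, 2, 3 or 4 was left out, when 1000 mg/kg replicate 1, 3 or 4 was left out, and in 4 of 9 other settings, with limma adjusted p-values of up to 0.199. Without 1000 mg/kg replicate 3 only Gstm1 of the 8 passed: limma adjusted p-values were 0.05 for Gsta3, which missed the threshold by less than rounding shows, and 0.0617 for Gstm2.

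Gstp1 was at 11.80, 11.83, 11.50, 12.07 and 11.91 in control kidney and at 12.56, 12.28, 12.38 and 12.46 at 1000 mg/kg. The groups did not overlap, but the change of 0.60 (SE 0.159) had a limma adjusted p of 0.0968. Gstk1 differed by 0.25 (limma adjusted p = 0.147), with treated arrays from 9.76 to 10.02 and controls from 9.56 to 9.81. Gsto1 stood at 11.85 ± 0.14 (SD, n = 5) in controls and 11.84 ± 0.10 (SD, n = 4) at 1000 mg/kg, and the 95% interval of its change ran from -0.197 to 0.184. The median kidney change of the 8 was 0.45, against -0.00255 over all probe sets, and 7 of 8 were positive, against 49.1% of all. In 5 of 8 every treated array lay above every control, against 1.33% of all probe sets.

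Marker lists of other cell types were read in the same kidney arrays. Macrophage markers, 8 of 9 measured, lay between -0.28 and -0.18 log2 units from the control mean at 1000 mg/kg and between -0.04 and 0.06 in controls, with summed linear levels of 565.3 to 584.8 against 641 to 755.5 and 1 marker called lower. Stellate cell and fibroblast markers, 8 of 8 measured, lay between -0.40 and -0.15 at 1000 mg/kg against -0.18 to 0.12 in controls. They summed to 1883 to 2432 against 2325 to 3175, and 1 of 8 had a higher mean, with none called. The cholangiocyte list, whose epithelial genes kidney tubules also express, summed to 6984 to 7808 at 1000 mg/kg against 6468 to 6892 in controls. Proximal tubule markers, 9 of 9 measured, summed to 71600 to 77310 against 72300 to 75790. Adipocyte markers varied widely: controls lay between -0.40 and 0.86 and 1000 mg/kg arrays between -0.58 and -0.21, and 7 kidney arrays, 1 of them a control, exceeded 0.5. Without those 7 arrays the change of Gstm1 was 1.15 (limma adjusted p = 0.00753). The part of the other lists in these changes was not tested.

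**Figure D2:**
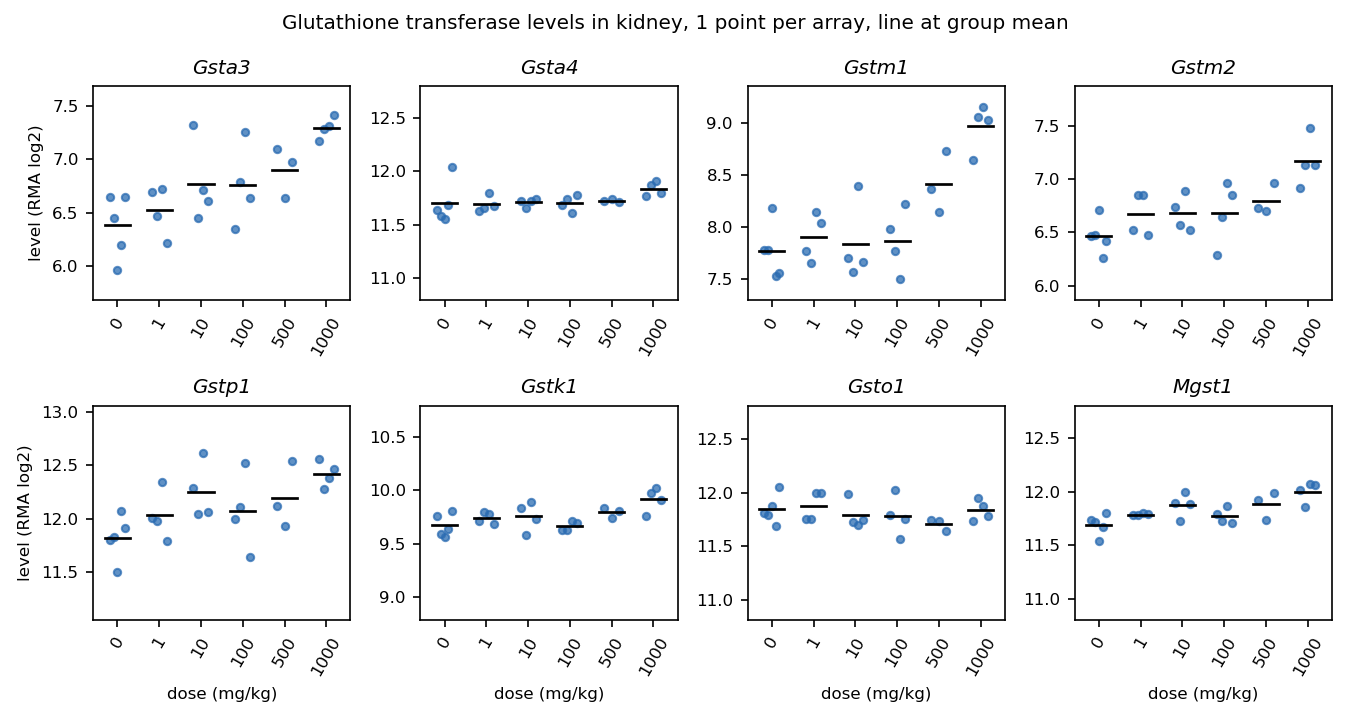
RMA log2 level (y axis) of each transferase in kidney against dose in mg/kg (x axis, doses evenly spaced), with 1 point per array and a line at the group mean. Y axes differ between panels. Gstm1 lies between 7.53 and 8.18 in controls and between 8.65 and 9.16 at 1000 mg/kg, and Gsto1 at 1000 mg/kg lies between 11.74 and 11.95, inside its control range.

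At 500 mg/kg none of the 8 passed in kidney (limma), where 3 arrays entered and 0.00322% of probe sets were called, in the lower direction. Gstm1 stood at 8.37, 8.15 and 8.73, and 1 of these lay inside the control range. Its change was 0.65, or 1.57-fold (unadjusted p = 0.00245, limma adjusted p = 0.787). Unadjusted p-values under 0.05 were found for 5 of the 8 at this dose: Gsta3 (change 0.52), Gstm1, Gstm2 (0.33), Gstp1 (0.38) and Mgst1 (0.19). All 5 were higher, against 2.13% of all probe sets.

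None of the 8 passed at 1, 10 or 100 mg/kg in kidney, and 0% of probe sets were called at each (limma). Unadjusted p-values under 0.05 numbered 0 of 8 at 1 mg/kg, 3 at 10 mg/kg (Gsta3, Gstp1 and Mgst1) and 1 at 100 mg/kg (Gsta3), all with higher means, against 1.44%, 2.77% and 2.82% of all probe sets. Gstp1 at 10 mg/kg was 12.29, 12.04, 12.61 and 12.06, with 2 of 4 arrays above all controls and a change of 0.43 (limma adjusted p = 0.818). Gstm1 means at these 3 doses differed from controls by 0.07 to 0.14.

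Over dose rank, Gstm1 rose by 0.21 log2 units per step (SE 0.038, limma adjusted p = 0.0031), Gsta3 by 0.16 (SE 0.03, limma adjusted p = 0.00431) and Gstm2 by 0.11 (SE 0.023, limma adjusted p = 0.0146). These 3 of 8 compare with 0.132% of probe sets called rising. Mgst1 had a slope of 0.05 (limma adjusted p = 0.067) and Gstp1 of 0.10 (limma adjusted p = 0.126). Between 500 and 1000 mg/kg none of the 8 passed, nor did any other probe set, and 1683 of 31042 had an unadjusted p under 0.05. For 2 of the 8, Gsta3 and Gsta4, every array at the higher dose lay above every array at the lower one, against 2.62% of all probe sets, and the ranges of Gstm1 and Gstm2 overlapped although their means differed by more than the larger SD. The highest kidney mean was at 1000 mg/kg for 7 of the 8 and at 1 mg/kg for Gsto1. The share of all probe sets highest at 1000 mg/kg was not counted.

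**Figure D3:**
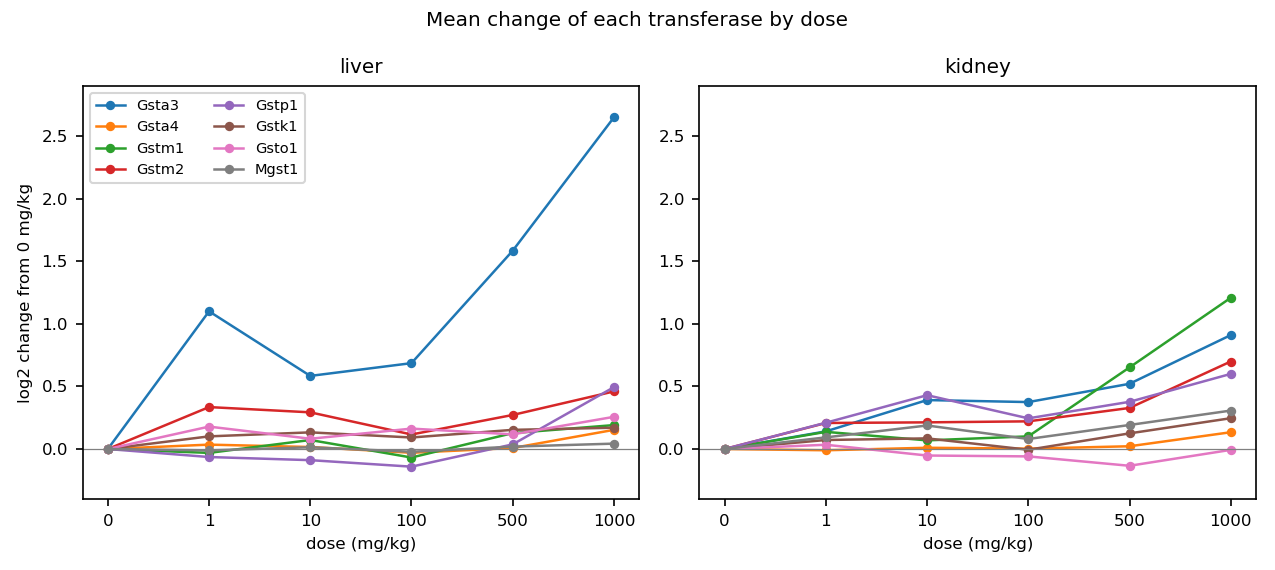
Mean log2 change from 0 mg/kg (y axis) of each transferase against dose in mg/kg (x axis, doses evenly spaced), liver left and kidney right, 1 line per gene, without error bars. Gsta3 in liver is at 1.10 at 1 mg/kg, at 0.58 at 10 mg/kg and at 2.65 at 1000 mg/kg. Gstm1 in kidney is at 0.65 at 500 mg/kg and at 1.21 at 1000 mg/kg.

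The responses of the organs at 1000 mg/kg were compared directly, each relative to its own controls. Gsta3 changed more in liver, by 1.74 log2 units (SE 0.379, limma adjusted p = 0.0344), and Gstm1 changed more in kidney, by a liver minus kidney difference of -1.02 (SE 0.202, limma adjusted p = 0.0155). These 2 of 8 compare with 0.180% of probe sets called in either direction. The Gsta3 changes behind it were 2.65 and 0.91, and the Gstm1 changes 0.19 and 1.21. Gstm1 averaged 12.77 in control liver and 7.77 in control kidney, and the highest level of any tested probe set was 14.85. Whether a high level narrowed the liver change of Gstm1 was not tested.

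The Gsta3 difference lost its call in 12 of 18 fits that left out 1 array, with limma adjusted p-values between 0.0529 and 0.117. These were kidney control replicate 1, 2, 4 or 5, kidney 1000 mg/kg replicate 1, 2 or 3, liver control replicate 1 or 3, and liver 1000 mg/kg replicate 2, 3 or 4. It also lost it in a fit of the 1000 and 0 mg/kg groups alone (0.162). The smallest difference among these fits was 1.42, without liver control replicate 1. The Gstm1 difference lost its call without kidney 1000 mg/kg replicate 3 (-0.96, limma adjusted p = 0.0527).

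For the other 6 the difference between organs did not pass. Mgst1, Gstm2 and Gstp1 were each called in 1 organ alone. Mgst1 passed in kidney and not in liver, and the liver minus kidney difference was -0.26 with a 95% interval from -0.43 to -0.099 (limma adjusted p = 0.244). Mgst1 averaged 13.82 in control liver, and whether so high a level narrowed its change was likewise not tested. Gstp1 passed in liver and not in kidney, yet its kidney change was the larger, 0.60 against 0.49, and the interval of the difference ran from -0.48 to 0.267 (limma adjusted p = 0.916). Gstm2 passed in kidney and not in liver, and the difference was -0.24 (limma adjusted p = 0.797). Gsto1 was called in neither organ and differed by 0.26 (limma adjusted p = 0.447). The intervals of Gsta4 and Gstk1 ran from -0.193 to 0.232 and from -0.258 to 0.108.

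**Figure D4:**
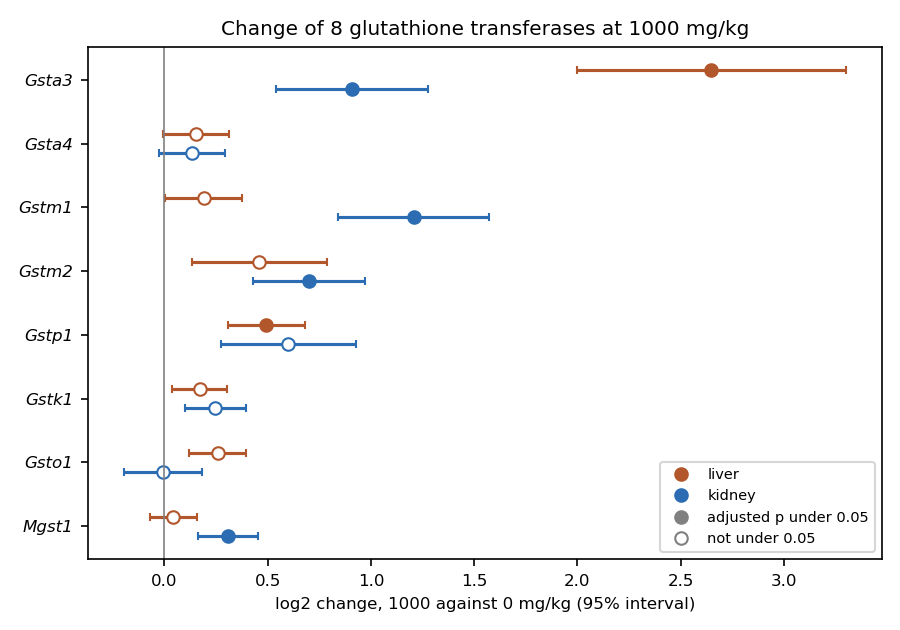
Log2 change at 1000 against 0 mg/kg (x axis) of each transferase (y axis) in liver and kidney. Points are limma estimates, bars 95% intervals, and filled points have an adjusted p under 0.05. The liver interval of Gsta3 starts at 2.00 and the kidney interval ends at 1.28, while for Gstm1 the liver interval ends at 0.38 and the kidney interval starts at 0.84.

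Correlations among the 8, after the dose means were removed, describe how they varied between animals of the same dose. Over 25 liver arrays 22 of 28 pairs were positive, with a median r of 0.10 and a highest of 0.62 for Gstk1 and Mgst1. Over 24 kidney arrays 23 of 28 were positive, with a median of 0.22 and a highest of 0.67 for Gstp1 and Mgst1. Gsta3 and Gstk1 correlated at 0.54 in liver and 0.60 in kidney. The neighbours Gstm1 and Gstm2 correlated at 0.42 in kidney, where Gsta3 and Gstm1, the 2 with the largest changes, correlated at -0.22. Values of 1 array share its RNA preparation and normalization.

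In liver the gene most like Gsta3 over the 25 arrays, among 13972 genes compared, was Nqo1, a quinone reductase and a standard NRF2 target, with r = 0.913, and 0.704 within doses. Nqo1 itself was 1.33 log2 units higher at 1000 mg/kg (limma adjusted p = 5.3e-06). Next came Aldh1l1, a folate enzyme (0.865, and 0.66 within doses), Erg28 (0.842 and 0.475), the theta class transferase Gstt3 (0.821 and 0.269) and the mitochondrial sulfurtransferase Tst (0.814 and 0.606). In kidney the genes most like Gstm1 over 24 arrays were Enpp5 (0.857, and 0.398 within doses), the peroxisomal beta-oxidation enzyme Ehhadh (0.821 and 0.112), the DNA polymerase delta subunit Pold4 (0.814 and 0.48), the peroxisomal membrane protein Pxmp2 (0.796 and 0.452) and Hyi (0.793 and 0.556). All 10 correlations were lower within doses. The genes were picked for their r over all arrays, so such a drop follows in part from the choice.

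The rest of the glutathione pathway was followed in 6 gene lists, and no gene of any list was called lower at 1000 mg/kg in either organ. Among the other glutathione transferases, 19 of 25 listed genes were measured, and 3 rose in liver, against 0.226% of all probe sets called higher. Gstt3 stood at 8.94, 9.30, 9.23, 8.83 and 8.99 in controls and at 10.69, 11.01, 11.07 and 10.99 at 1000 mg/kg, without overlap and with a change of 1.88 (limma adjusted p = 3.38e-07). The other two were Gstt1, also of the theta class, with a change of 0.53 (limma adjusted p = 0.0136), and the microsomal Mgst2, with 0.46 (limma adjusted p = 0.0314). In kidney 1 of 19 rose, against 0.197% of all probe sets called higher. It was the zeta class enzyme Gstz1 of tyrosine breakdown. Its controls lay between 9.29 and 9.68 and its treated arrays between 9.83 and 10.16, a change of 0.51 (limma adjusted p = 0.0101). The organs differed for Gstt3, by 1.68 (limma adjusted p = 7.57e-08), and for Gstz1, by -0.59 (limma adjusted p = 0.00921). At lower liver doses 1 of the 19 was called higher at 10 mg/kg, where 0.00322% of probe sets were. At 500 mg/kg it was 1 of the 19, against 0.0129%, and at 1 and 100 mg/kg 0. The list medians at 1000 mg/kg were 0.07 in liver and 0.09 in kidney, against 0.22 and 0.45 for the 8. The 8 and the list were chosen with earlier results of these data known, so this contrast is not independent of that choice.

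Glutathione synthesis, 7 of 7 genes measured, had no call in either organ. The smallest p in both belonged to Cth, which makes cysteine from cystathionine, with changes of 0.25 in liver (limma adjusted p = 0.327) and 0.56 in kidney (limma adjusted p = 0.193). Gclm, the modifier subunit of the rate-limiting ligase, changed by 0.25 in liver (limma adjusted p = 0.525) and the cystine transporter chain Slc3a2 by -0.40 in kidney (limma adjusted p = 0.296). Of glutathione reduction and peroxide removal, 16 of 17 genes were measured and 1 rose in liver, against 0.226% of all probe sets. Gsr, the reductase that regenerates glutathione, lay between 7.39 and 7.72 in controls and at 8.24, 7.98, 8.62 and 8.40 at 1000 mg/kg, a change of 0.72 (limma adjusted p = 0.00791). In kidney 0 of 16 passed, and Prdx6 and Esd, with the smallest p, differed by 0.21 and 0.17 (limma adjusted p = 0.286 and 0.403).

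Of conjugate exporters, 7 of 9 were measured and 1 rose in liver, against 0.226% of all probe sets. Abcc3, which carries conjugates across the basolateral membrane into blood, stood at 5.51, 5.39, 4.86, 5.09 and 6.09 in controls and at 6.65, 7.32, 7.53 and 7.13 at 1000 mg/kg. The groups did not overlap, and the change was 1.77 (limma adjusted p = 1.19e-05). In kidney 0 of 7 passed, Abcc3 differed by 0.20 (limma adjusted p = 0.417), and the difference between organs was 1.58 (limma adjusted p = 3.73e-05). Glutathione breakdown and mercapturate formation, 15 of 16 measured, had no call. Cndp2, a dipeptidase that splits cysteinylglycine, differed by 0.39 in liver (limma adjusted p = 0.1) and Oplah by 0.21 (limma adjusted p = 0.468). In kidney Nat8, which acetylates cysteine conjugates, differed by 0.49 (limma adjusted p = 0.085) and Acy3 by 0.51 (limma adjusted p = 0.14).

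The regulators of transferase genes, 16 of 17 measured, had no call in either organ at the RNA level. In liver Rxra, the partner of CAR and PXR, differed by 0.49 (limma adjusted p = 0.137) and Nfe2l1 by 0.25 (limma adjusted p = 0.26). In kidney Ahr differed by 0.33 (limma adjusted p = 0.387) and Nfe2l2, which encodes NRF2, by -0.25 (limma adjusted p = 0.411). The activity of these factors was not measured.

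**Figure D5:**
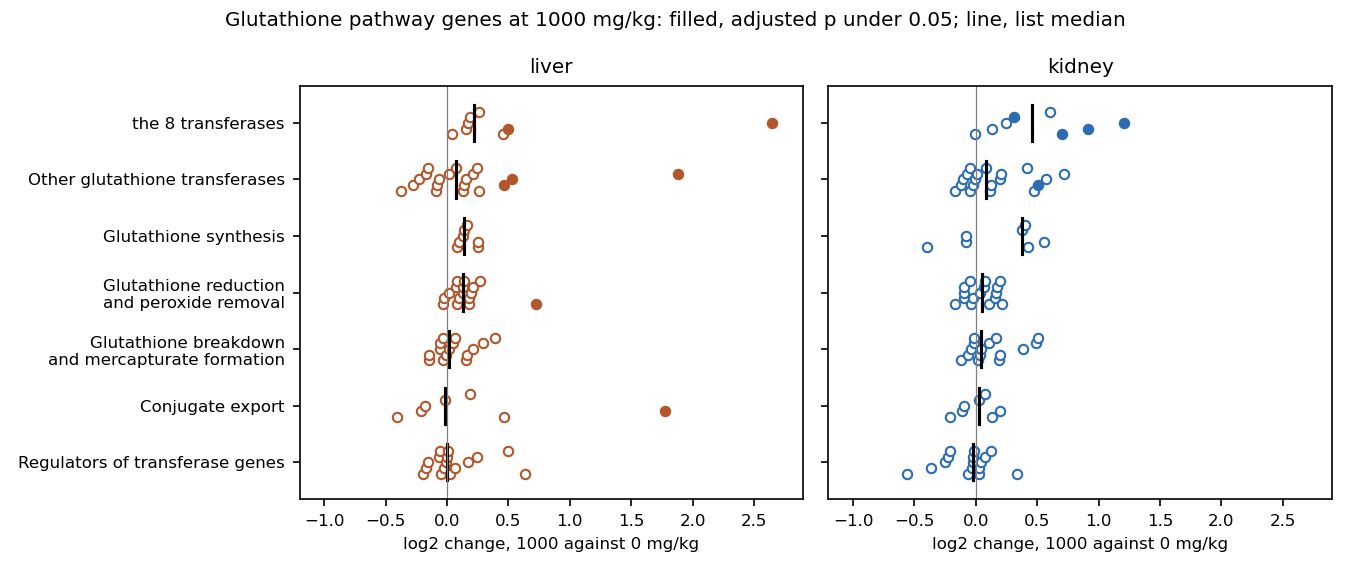
Log2 change at 1000 against 0 mg/kg (x axis) of each measured gene, by list (y axis), in liver and kidney. Filled points have a limma adjusted p under 0.05 and black lines are list medians. In liver the filled points outside the 8 are Gstt3, Gstt1, Mgst2, Gsr and Abcc3, and in kidney Gstz1.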

How the data were processed

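Per the labels, total RNA of each tissue sample was hybridized to its own array. The authors deposited log2 levels per probe set, computed by RMA (per the submitters' processing notes). The RMA version, and whether both organs were normalized together, are not given in the sources used here. RMA makes the distributions of arrays alike, so a change common to most genes would not be seen.

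Of 31099 probe sets, 57 controls were left out. Groups came from the sample titles. For each organ limma 3.58.1 in R 4.3.3 fitted 1 mean per dose group to all 31042 probe sets, and a second model fitted the dose rank. The organs were compared by a contrast over all 49 arrays. P-values were adjusted by Benjamini-Hochberg over all probe sets, and an adjusted p under 0.05 was called. Intervals are 95% and unadjusted. The series text states 4 replicates for each non-zero dose, and the kidney group at 500 mg/kg had 3 here.

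All 8 transferases were named. Of each pathway list, the genes called at 1000 mg/kg were named, or otherwise the 2 with the smallest p, each by its probe set with the highest mean. Likeness was Pearson's r with the transferase of smallest p in each organ. Members and lists were chosen with earlier results of these data known.

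Alternatives were 1 probe set per gene, brighter probe sets only, quantile normalization, median centring, array weights, a variance trend (robust), a block on replicate number, both groups fitted alone and leaving out each array. Leaving out kidney arrays over 0.5 log2 units above the control mean in adipocyte markers, and liver 500 mg/kg replicate 3, was added after the data were seen. The models were tested on simulated data.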

Additional observations from a re-analysis of the deposited data

Results flagged for a closer look

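Among 88 groups of 4 or 5 arrays, 3 held a value far from the others, where chance alone would give about 1 in 20. Gsta4 in kidney control replicate 5 stood at 12.04, and the other controls lay between 11.56 and 11.69. Gsta4 in liver 1000 mg/kg replicate 3 stood at 11.12, and the others lay close to 10.99, the lowest. Gstm1 in kidney 10 mg/kg replicate 3 stood at 8.40, and the others lay between 7.57 and 7.70.

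The response to 1000 mg/kg differed between the organs for 2 of the 8, by the test of the difference itself. Gsta3 differed by 1.74 log2 units, more in liver (limma adjusted p = 0.0344), and Gstm1 by -1.02, more in kidney (limma adjusted p = 0.0155).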

How the results depend on the processing

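Of 293 recounts of called transferases over 15 comparisons, 276 stayed within 1.5 times the main count and 17 moved. Many of these comparisons had a main count of 0 and almost always stayed there, so the 276 say little about how stable the calls are. The difference between organs held 13 of the 17 moves, in 26 recounts. Of 496 recomputed changes of single transferases 7 changed sign. These were 4 of Gsto1 in kidney, at -0.01 and up to 0.05 when turned, and 3 of Gsta4 between organs, at 0.02 and down to -0.07. None of the 7 was called before or after. In liver at 1000 mg/kg the count was 2 of 8. It was 1 in a fit of both groups alone and between 1 and 2 when 1 array was left out. With 1 probe set per gene, with brighter probe sets only and with a variance trend it was 3, as Gsto1 was added. The change between 500 and 1000 mg/kg in liver gained 1 call, Gstp1, with a variance trend. In kidney at 1000 mg/kg the count of 4 lay between 1 and 4 when 1 array was left out and was 1 without 1000 mg/kg replicate 3. The kidney trend had between 2 and 4 calls when 1 array was left out. The difference between organs had 2 calls, 1 in a fit of both groups alone, and between 0 and 2 when 1 array was left out, 0 without kidney 1000 mg/kg replicate 3. The cause was not tested, except that fits of both groups alone rest on fewer arrays. The labels do not say whether samples with the same replicate number share an animal or batch. The rule for pairing, every correlation over 0.1, was not met. Deviations of same-numbered arrays correlated over 0.1 in 2 of 20 liver pairs and 4 of 19 kidney pairs of a dose group with controls. Of these, 10 of 20 and 10 of 19 were positive. Of 24 pairs of liver with kidney, 9 correlated over 0.1 and 22 were positive. The rule is strict, so missing it does not show that liver and kidney came from different animals. With the number as a block, the changes at 1000 mg/kg were 2.84 for Gsta3 in liver and 1.16 for Gstm1 in kidney (limma adjusted p = 0.000431 and 0.00152). With dose and number as a random block, the organ differences of Gsta3 and Gstm1 had limma adjusted p-values of 0.0215 and 0.00936, and no count moved by over 1.5 times. Low signals hold an unknown share of background, since no detection calls were used.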
